A study of Drosophila melanogaster with 54 samples.

Results

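RNA of whole single Drosophila melanogaster embryos at stage 10 was compared with that of embryos at stage 4. The comparison takes the 9 libraries labelled stage 10 and the 5 labelled stage 4, which are 14 of 54 embryos at 8 stages in the series. Each library holds the RNA of 1 embryo that was picked by hand, staged by its morphology under a stereomicroscope and crushed in lysis buffer. The labels name the stage and a letter for each embryo, and give no genotype, strain, treatment, age in hours, sex or parents, and the p-values rest on how far these single embryos differ. The title of the study concerns dosage compensation of the X chromosome during embryogenesis; stages 4 and 10 bracket the time at which the embryo takes over from its mother.

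A fly embryo begins life on RNA that the mother put into the egg. During the syncytial divisions its own genome is nearly silent, and the pioneer factor Zelda opens chromatin for the main wave of transcription at cellularization. Maternal RNAs are removed in part by egg-activation machinery, in which the kinase complex of Png, Plu and Gnu switches on the RNA-binding protein Smaug and its partners in deadenylation, and in part by products of the zygotic genome. Stage 4 is the syncytial blastoderm. At stage 10 the germ band is extended, neuroblasts are delaminating, tracheal cells are specified and the mesoderm is being subdivided.

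Gene reads numbered 2537965 to 5700497 per embryo at stage 10 and 4410384 to 12863155 at stage 4. At least 1 read was counted in 10485 to 11546 genes per embryo at stage 10, against 7842 to 8643 at stage 4, although the stage 4 libraries were deeper on average. Levels are given as counts per 1000000 gene reads (CPM) after scaling, and are shares of the RNA of an embryo, because spike-in values were not used here. A whole embryo mixes all its cells, so fewer cells of a type and less RNA per cell cannot be told apart. Reads that lay in no gene made up 7.10 ± 2.33% at stage 10 (4.53 to 10.5%) and 0.328 ± 0.019% at stage 4 (SD, n = 9 and 5). The groups did not overlap, and the exact two-sided permutation p of 0.00050 is the smallest that 2002 arrangements of these embryos can give. The part of this share in the changes given here was not tested, beyond leaving out the 4 stage 10 embryos above 8%. Of all reads, gene reads were 13.3 to 17.2% at stage 10 and 20.5 to 26.5% at stage 4, again without overlap. The share in no gene therefore does not give the part of all reads that fell in genes. What this difference in gene reads does to the changes was not tested.

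A few embryos stood apart from their stage. Stage 10 embryo C, and to a lesser degree embryo B, held RNA of every abundant gene of stage 4. Among 3611 genes with at least 50 CPM at stage 4, the lowest share of the stage 4 level found for any gene was 2.97% in embryo C, 0.476% in embryo B and 0% in the other 7. Genes left at under 1% of their stage 4 level numbered 0 in embryo C and 9 in embryo B, against 74 to 100 in each of the other 7. The reverse was not seen. Among 3184 genes with at least 50 CPM at stage 10, between 91 and 131 had no read in each stage 4 embryo. Values for some strongly lost RNAs are therefore given with and without stage 10 embryos B and C. Other values are over all 9 stage 10 embryos. For these, embryos B and C may raise what is left and make the loss look smaller. Stage 4 embryos G and H had the lowest levels of several maternal RNAs and the first traces of zygotic ones, among them run with 2.39 and 9.17 CPM in G and H and at most 0.0663 CPM in B, C and D. What sets these embryos apart was not tested.

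Stage 10 embryo J lacked a set of patterning RNAs that the other 8 had. With a level under 1 part in 5 of the lowest of the other 8, each of which held at least 5 CPM, 15 of 5972 genes met this limit in J, against 1 gene in F, 1 in I and 0 in each of the other 6. Among the 15 were gt and tll, gap genes of the head and the terminal regions, the head Hox gene Dfd, the homeobox gene Gsc, the eye-field genes so, toy and dac, the brain transcription factors erm and otp, and byn, which specifies the hindgut. The RNA of gt had no read in J and 26.0 to 71.6 CPM in the other 8, tll had 0.337 against 13.6 to 32.4 CPM, Dfd 2.36 against 27.3 to 48.1 CPM, toy 3.70 against 34.7 to 57.8 CPM, and byn 2.69 against 17.7 to 45.0 CPM. The trunk Hox genes were at the other extreme, with abd-A at 354 CPM in J and 66.2 to 277 CPM in the other 8, and Antp at 192 against 108 to 168 CPM. This limit was set after the values had been seen, and the cause was not tested. Without embryo J the changes of gt, tll, Dfd, byn and otp between stage 10 and stage 4 were still called.

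Most of the genes tested differed between the stages in their share of the RNA. A called difference does not say whether the RNA came from the mother or from the zygotic genome. Of 9783 genes tested, 8175 (83.6%) differed between stage 10 and stage 4 at an adjusted p under 0.05. They comprised 4864 higher genes (49.7%) and 3311 lower genes (33.8%). The genes tested include 3212 with under 1 CPM at stage 4, where a fall can hardly be called. For lists of maternal RNAs these shares are therefore not a like background. At least 2-fold changes were called for 3586 higher genes (36.7%) and 1940 lower genes (19.8%), and 1608 genes were not called. The test was edgeR's quasi-likelihood test with Benjamini-Hochberg adjustment over all genes tested, and log2 changes are stage 10 over stage 4, given with their standard error (SE). Means of CPM are given ± SD over 9 stage 10 and 5 stage 4 embryos. The median log2 change of all genes tested was 0.397, and it moved to 0.567 with median-ratio scaling, so small changes depend on the scaling. A level of at least 10 CPM was taken as present and a level under 1 CPM as absent. By the stage means, 5854 genes were present at stage 10 and 5745 at stage 4, with 4963 present at both.

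Classes were formed from the same contrast, so their sizes and their shares of reads are descriptions and carry no test. Of the 5744 tested genes present at stage 4, 60 were gone, meaning called lower with a stage 10 mean under 1 CPM. Another 1699 were reduced by at least 2-fold but still at 1 CPM or more. A further 2326 were steady, with a change under 2-fold and no mean at stages 5, 6 or 8 more than 2-fold under either end, 569 had risen by at least 2-fold, and 1090 belonged to none of these. A set of 599 genes was added, with under 1 CPM at stage 4 and at least 10 CPM at stage 10. Another 294 genes, which may also belong to reduced or risen, dipped at least 4-fold below both ends at stage 5, 6 or 8 and then returned.

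**Figure D1:**
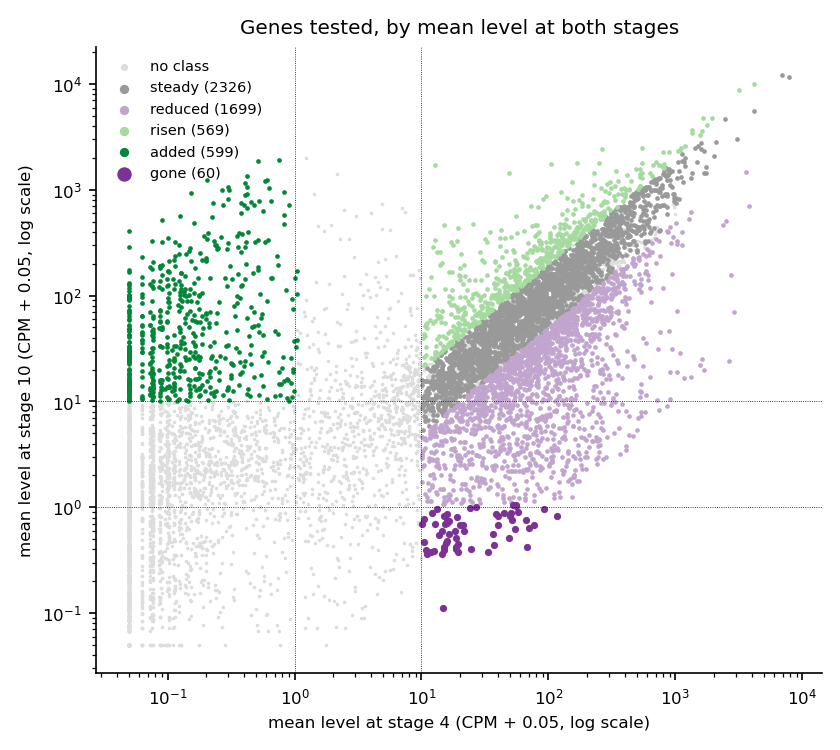
Mean level of each gene tested at stage 10 (vertical axis, CPM + 0.05, log scale, 9 embryos) against stage 4 (horizontal axis, same unit, 5 embryos), coloured by class. The 599 added genes fill the upper left, the 60 gone genes lie below the line at 1 CPM on the right, and the reduced genes spread between the gone genes and the grey band of 2326 steady genes.

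The shares of gene reads held by the classes give the size of the shift. Its direction for gone, reduced, risen and added genes was set by the class limits. Reduced genes held 6.05 ± 0.37% of gene reads at stage 10 and 30.4 ± 0.83% at stage 4. Added genes held 7.32 ± 0.57% at stage 10 and 0.0113 ± 0.0029% at stage 4. Genes that had risen held 25.5 ± 0.73% at stage 10 and 10.0 ± 0.51% at stage 4, while steady genes held 46.6 ± 1.33% and 43.9 ± 1.12% (SD, n = 9 and 5 for all). The 60 gone genes were a small part at either end, with 0.00378 ± 0.00341% at stage 10, 0.00244% without embryos B and C, and 0.220 ± 0.021% at stage 4. These shares are those of the 60 genes only. Without embryos B and C 111 genes were gone, some of them more abundant at stage 4, and their share is not given here. Most of the shift of the reduced genes was complete early: over stages 4, 5, 6, 8 and 10 they held 30.4, 11.9, 7.21, 6.31 and 6.05%. The added genes climbed over these stages through 0.0113, 3.94, 5.93, 6.40 and 7.32%.

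**Figure D2:**
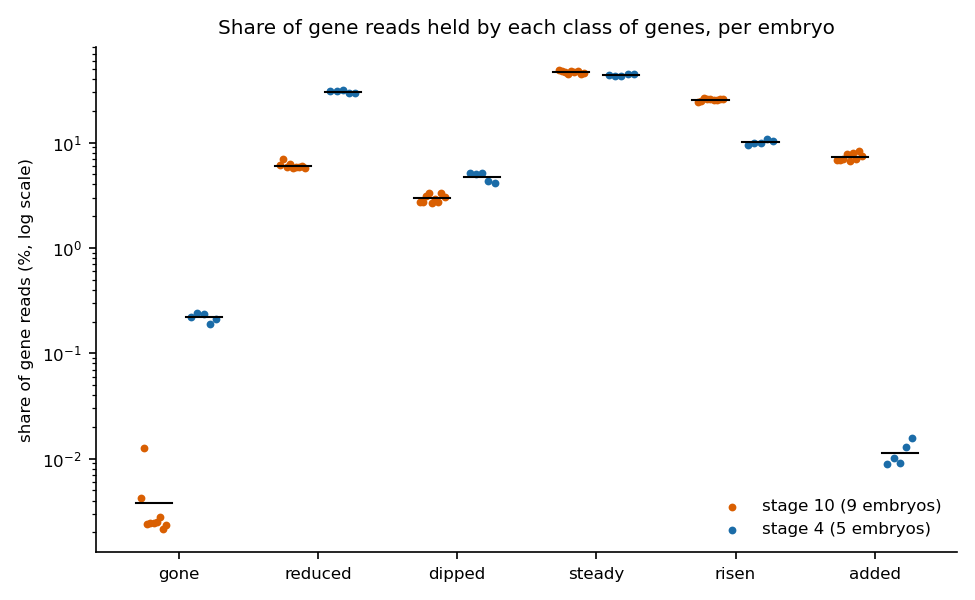
Share of gene reads held by each class in each embryo (vertical axis in percent, log scale), for stage 10 on the left and stage 4 on the right of each class; points are embryos and bars are means. The groups overlap in the steady class alone and are apart in the other 5. For gone, reduced, risen and added genes this separation is built into the limits that formed the classes. Embryo C is the high stage 10 point of the gone class at 0.0127%.

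The stage 10 level was expressed as a percentage of the stage 4 level, which includes any RNA made anew as well as what remained. The median over the 5744 genes was 79.4%. The level was 50 to 100% of that at stage 4 for 1796 genes, 25 to 50% for 887, 5 to 25% for 592, 1 to 5% for 268 and under 1% for 15. Without embryos B and C the last bin held 79 genes and the 1 to 5% bin 239, while the median moved only to 79.1%. Another 1614 genes were at 100 to 200% and 572 at 200% or more. Levels under 5% were thus found for few of the RNAs present at stage 4, and levels of 25 to 100% for many.

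The gone genes with the highest stage 4 levels, in CPM without regard to gene length, were Tsp74F, Mctp, CG44005, CG5966, mdu, CG9896, CG9265, CG10863, CG31075 and CG14931. Tsp74F, which encodes a tetraspanin, a membrane protein with several transmembrane segments, lies on 3L, 17891820 to 17895862 in BDGP6.54. Its RNA was between 0 and 4.97 CPM (median 0.165) at stage 10 and at 126, 117, 119.9, 105 and 113 CPM in the stage 4 embryos B, C, D, G and H. Embryo C held the highest stage 10 value, and every stage 10 embryo was far under every stage 4 embryo, with a log2 change of -7.06 ± 0.44 (adjusted p = 1.01e-20) and -9.44 without embryos B and C. For mdu on the X chromosome the values were 0 to 2.39 CPM (median 0) at stage 10 and 70.4, 71.8, 69.4, 60.0 and 64.6 CPM at stage 4. No read of mdu was counted in 5 of the 9 stage 10 embryos. CG31075 differed among the stage 4 embryos themselves, with 0 to 4.18 CPM at stage 10 and 85.9, 64.2, 89.4, 25.6 and 11.2 CPM at stage 4, with embryos G and H lowest.

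Loss was not always final. Of the 60 gone genes, 20 were present again at stage 15. The mean of mdu was 36.7 CPM and that of CG5966 31.2 CPM at stage 15, whereas CG44005 stood at 0.0557 CPM. Genes known only by a CG number made up 35 of the 60 (58.3%), against 31.8% of all genes tested. The limit of 1 CPM separates close values, since CG31075, CG10863 and CAH2 lay just inside it at 0.982, 0.990 and 1.000 CPM at stage 10 and CG34216, IP3K1 and CG3860 just outside at 1.014, 1.022 and 1.025 CPM.

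Further genes of this kind came up without the RNA of embryos B and C. Without these embryos 111 genes were gone, and the most abundant of the additions had stage 4 means of 159 to 405 CPM. They include Akr1B, an aldo-keto reductase, E23, an ABC transporter, and fs(1)Ya, a nuclear envelope protein needed to start the embryonic divisions. For fs(1)Ya the level was 3.35 and 15.9 CPM in embryos B and C, between 0 and 1.501 CPM in the other 7, and 300.5, 297, 308, 221 and 222 CPM at stage 4. Those 7 embryos thus kept 0.331% of the stage 4 mean, and all 9 together 1.05%.

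**Figure D3:**
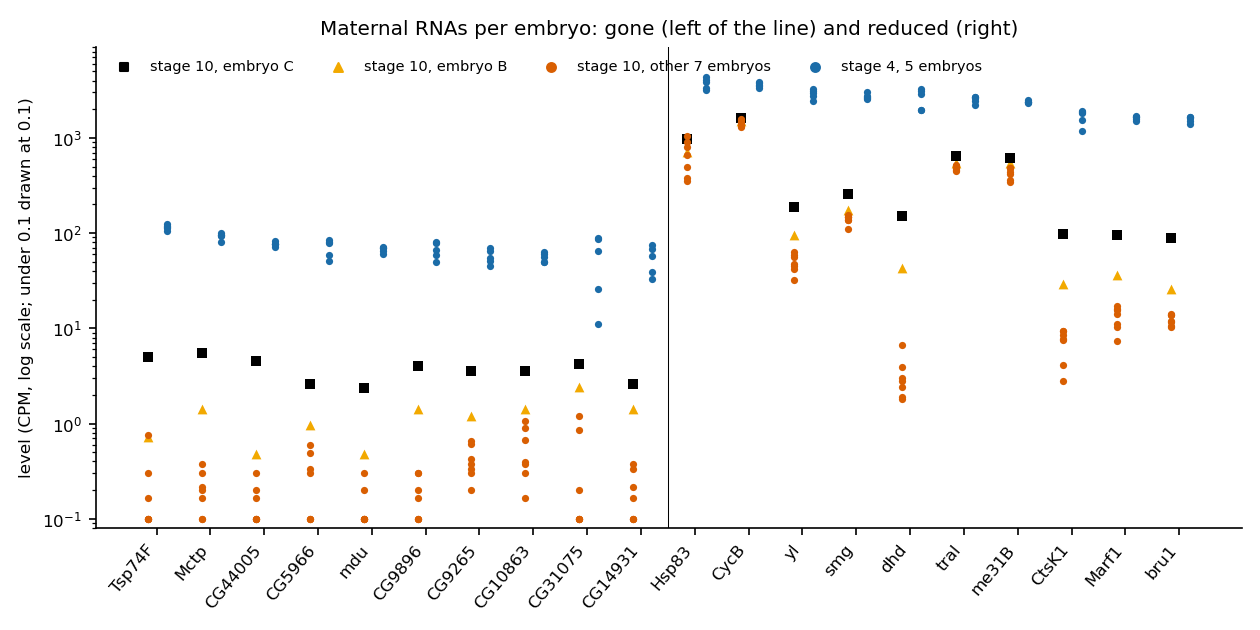
Level of 10 gone genes and 10 reduced genes in each embryo (vertical axis in CPM, log scale, values under 0.1 drawn at 0.1), with stage 10 left of stage 4 for each gene; black squares mark stage 10 embryo C and yellow triangles embryo B. Embryo C is the highest stage 10 point for all 10 gone genes, and for dhd it has 152 CPM, against 1.80 to 6.60 CPM in the 7 embryos other than B and C.

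The determinants of the body axes and of the germ plasm were the most depleted of the maternal groups examined. Of 21 tested genes of this list 19 were lower and 2 higher, and the median log2 change was -4.93. The shares of all genes, 33.8 and 49.7%, include genes that were absent at stage 4. Oskar RNA, which directs germ plasm assembly at the posterior pole and lies on 3R, 8935126 to 8938395, was between 3.22 and 74.0 CPM (median 9.41) at stage 10 and 1314, 1434, 1467, 1380.4 and 1086 CPM at stage 4. The highest stage 10 value, in embryo C, was a small part of the lowest stage 4 value, and the log2 change was -6.23 ± 0.34 (adjusted p = 5.5e-23). The anterior determinant bcd reached 0 to 8.75 CPM (median 0.826) at stage 10, against 134, 165, 155, 149.7 and 115 CPM at stage 4, a log2 change of -6.23 ± 0.35. The posterior translational repressor nanos kept 2.67% of its stage 4 level and vas, a germline RNA helicase, 2.80%. RNAs for the transport and translational control of these determinants went the same way, with log2 changes of -6.75 for swa and -6.05 for exu, which localize bcd RNA, -6.09 for bru1, which represses osk, and -6.03 for orb.

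Other members of the list were lost only in part. The RNA of pum, partner of Nanos, fell by 1.17 on the log2 scale, and that of tud, a germ plasm scaffold, by 0.63. Both piRNA factors fell, piwi to 22.1 ± 11.4 CPM at stage 10, against 277 ± 25.8 CPM at stage 4, and aub to 42.4 ± 13.98 CPM, against 164 ± 4.22 CPM. The higher genes were stau, a double-stranded RNA-binding protein that also acts in neuroblasts, with 563 ± 31.2 CPM at stage 10 and 324 ± 22.2 CPM at stage 4, and vls. For BicC no read was counted in any of these embryos. This does not show that its RNA was absent, because reads shared between overlapping genes were not counted for any gene. The RNA of grk is uncertain, because only 33.7% of its reads lay on its own strand.

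Within the Toll and Torso pathways, which pattern the dorsoventral axis and the embryo ends, members were lost to very different extents. Of 18 genes tested 14 were lower and 2 higher, with a median log2 change of -1.74, or -2.95 over the 16 genes tested with opposite-strand counts. The NF-kappaB factor dl, on 2L, 17436830 to 17450364, fell to 0.165 to 5.17 CPM (median 0.798), against 126, 120.0, 125, 127 and 116 CPM at stage 4, a log2 change of -6.59 ± 0.29 (adjusted p = 7.38e-27). The Toll ligand spz and the receptor kinase tor of the terminal system kept 2.77 and 2.30% of their stage 4 levels. The receptor Tl, the kinase pll and the inhibitor cact kept more, at 45.1, 49.4 and 62.1%, and Raf, a kinase shared with other receptor pathways, stood at 139 ± 17.6 CPM at stage 10 and 129 ± 5.87 CPM at stage 4 with no call (adjusted p = 0.316), though it was called higher with median-ratio scaling. Among the extracellular proteases, snk and gd were gone and ea kept 9.52%. The higher genes pip and tsl, known for their roles in follicle cells, had no read at stage 4 and only 3.40 and 2.95 CPM on average at stage 10.

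The machinery that removes maternal RNA was itself lowered. Of 18 tested genes for egg activation and RNA clearance 14 were lower and 3 higher, with a median log2 change of -2.21. The kinase genes png, plu and gnu were at 2.83, 1.51 and 3.80 CPM at stage 10, against 73.7, 34.4 and 172 CPM at stage 4. Smaug RNA (smg), on 3L, 8990317 to 8997989, was between 111 and 258 CPM (median 147) at stage 10 and 2654, 2544, 2679, 3016 and 2746 CPM at stage 4. Every stage 10 embryo kept some, and the log2 change was -4.11 ± 0.12 (adjusted p = 5.78e-35). The repressor complex members me31B and tral kept 19.5 and 20.2%. The deadenylase subunits behaved otherwise: Pop2 and twin kept 60.6 and 70.2%, and the scaffold Not1 stood at 1291 ± 210.2 CPM at stage 10 and 1325 ± 139 CPM at stage 4 with no call (adjusted p = 0.683). The 3 higher genes were brat, CycB3 and pan. The last of these is pangolin, the transcription factor of Wnt signalling, whose name does not belong to egg activation, and it stood at 325 ± 49.2 CPM at stage 10 and 18.8 ± 3.08 CPM at stage 4. No read was counted for cup, which does not show that its RNA was absent, because reads shared between overlapping genes were left out. Whether this holds for cup was not tested.

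The most abundant reduced RNAs were Hsp83, CycB, yl, smg, dhd, tral, me31B, CtsK1, Marf1 and bru1, a choice made after the values had been seen. The chaperone RNA Hsp83 was between 353 and 1055 CPM (median 709) at stage 10 and 4406, 3893, 4075, 3162 and 3340.5 CPM at stage 4. The vitellogenin receptor yl, which takes yolk protein into the oocyte, kept 2.41%, or 1.69% without embryos B and C. The thioredoxin dhd, which helps to unpack sperm chromatin, shows what embryos B and C change: its RNA was 42.9 and 152 CPM in them, 1.80 to 6.60 CPM in the other 7, and 3234, 2899.6, 3097, 1976 and 1954 CPM at stage 4. Its log2 change was -6.69 over all 9 embryos and -9.67 without these embryos.

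The losses were mostly early. Of 875 genes at or under 25% of their stage 4 mean at stage 10, 532 (60.8%) were already there at stage 5, a further 141 by stage 6, 70 by stage 8 and 132 only at stage 10. Of the axis determinants, osk followed this course: its means over stages 4, 5, 6, 8 and 10 were 1336, 24.1, 12.9, 12.8 and 17.2 CPM. The stage 10 mean of osk includes the high value of embryo C, so its excess over stage 8 is not read as a rise. The piRNA factor aub did not follow this course, with 164, 253, 155, 94.2 and 42.4 CPM. The poly(A) polymerase RNA wisp was later, with 1089, 883, 227, 92.3 and 28.6 CPM at these stages, and tor was later too, with 209, 191, 32.7, 17.0 and 4.80 CPM. Of the 60 gone genes 24 were first under 1 CPM at stage 5, 17 by stage 6, 6 by stage 8 and 13 by stage 10.

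Among the RNAs that persisted, the steady genes with the highest stage 4 levels, outside ribosomal protein and mitochondrial genes, were the translation elongation factors eEF1alpha1 and eEF2, the chaperone Hsc70-4, the chromatin remodeler kis and the cytoplasmic actin Act5C. The RNA of Hsc70-4 was between 2777 and 3297 CPM (median 3059.9) at stage 10 and 3178, 2806, 2832, 3144 and 3235 CPM at stage 4. These ranges overlap, the means were 3039 ± 208 CPM at stage 10 and 3039 ± 203 CPM at stage 4, and the gene was not called, though median-ratio scaling called it higher with a log2 change of 0.17. The other 4 were called higher by less than 2-fold, as with eEF1alpha1 at 11604 ± 909 CPM at stage 10 and 7855 ± 438 CPM at stage 4. A steady level does not say whether the molecules at stage 10 are the maternal ones or new ones.

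Of 10 chromatin factors of the early genome 3 were higher and 1 lower, but 6 were higher with median-ratio scaling, 7 with DESeq2 and 5 with opposite-strand counts. The lower one was BigH1, the linker histone of the early embryo, on 3R, 14663450 to 14664822, which fell to 1.13 to 15.5 CPM (median 2.36), against 275, 229, 256, 236 and 256 CPM at stage 4, a log2 change of -5.78 ± 0.31 (adjusted p = 1.82e-23). The pioneer factor zld was higher at 1712 ± 233 CPM at stage 10, against 662 ± 67.8 CPM at stage 4, as were Trl, the GAGA factor, at 28.9 ± 5.12 CPM and 6.42 ± 0.736 CPM, and the histone methyltransferase E(z). The insulator proteins su(Hw) and BEAF-32 and the factor Clamp had log2 changes of -0.06, 0.01 and 0.04 and were not called, but BEAF-32 was called higher with opposite-strand counts and Clamp with DESeq2. Median-ratio scaling and DESeq2 both added Pc, pho and nej to the higher ones, with log2 changes of 0.24 to 0.28 under either.

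Genes of the cleavage divisions split, with 12 of 24 lower and 8 higher, and 9 lower and 10 higher with median-ratio scaling. Of all genes 33.8% were lower and 49.7% higher, but these include 3212 with under 1 CPM at stage 4. All 24 cleavage genes were present at stage 4, so these shares do not show that the list fell more than other maternal RNAs. The median log2 change of the list, -0.19, lay between -0.23 and 0.14 under the other ways of processing, so the list as a whole has no firm direction. The Cdc25 phosphatase twe fell to 4.32 ± 3.51 CPM, against 198 ± 15.2 CPM at stage 4, and cyclin CycB to 1468 ± 99.4 CPM, against 3588 ± 195 CPM. The checkpoint kinases grp and lok kept 42.6 and 22.1%. In the other direction fzy, an activator of the anaphase-promoting complex, had 506 ± 43.9 CPM at stage 10 and 234 ± 19.3 CPM at stage 4, and the Aurora B kinase aurB 155 ± 20.3 CPM and 52.1 ± 3.71 CPM. The change of Cks85A is uncertain, with 33.9% of its reads on its own strand.

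Protein degradation and protein synthesis moved apart. Of 34 tested proteasome genes 29 were lower and 2 higher, with a median log2 change of -0.60. The shares of all genes, 33.8 and 49.7%, include genes that were absent at stage 4. The subunit Prosalpha4 fell to 40.9 ± 6.22 CPM, against 226 ± 16.9 CPM at stage 4, and Rpn10, a ubiquitin receptor, to 134 ± 8.53 CPM, against 198 ± 31.8 CPM. The higher ones, Rpn13R and Prosbeta2R2, averaged only 0.499 and 1.05 CPM at stage 10. Of 80 cytosolic ribosomal protein genes 79 were higher and 0 lower, with a median log2 change of 0.79, which compares with 0.397 over all genes. Their summed share was 8.22 ± 0.65% of gene reads at stage 10 and 5.53 ± 0.52% at stage 4 (exact two-sided permutation p = 0.00050, the smallest possible here). The one not called was RpS5b, at 378 ± 44.8 CPM at stage 10 and 434 ± 51.6 CPM at stage 4, whose paralog RpS5a had 675 ± 59.9 CPM and 293 ± 26.0 CPM. Mitochondrial ribosomal protein genes did not share this shift: 15 of 71 were higher and 28 lower, and their median of -0.17 moved to 0.00 with median-ratio scaling. RNAs of the mitochondrial genome were higher for 14 of 15, and their share was 4.72 ± 1.15% at stage 10 and 2.44 ± 0.35% at stage 4 (exact two-sided permutation p = 0.0020).

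In 6 of 8 gene pairs the mean share of the later member was larger at stage 10 than at stage 4, and in the gamma-tubulin and thioredoxin pairs it passed from the minor to the major part. Shares here are those of the later member in the summed level per kilobase of both members. The tubulin alphaTub67C, a maternal isoform, fell to 7.18 ± 10.5 CPM, against 539 ± 139 CPM at stage 4, while alphaTub84B rose to 4825 ± 295 CPM, against 1651 ± 114 CPM, so that alphaTub84B made up 99.8 ± 0.27% of the pair at stage 10 and 74.0 ± 5.75% at stage 4. For gamma-tubulin the loss of the maternal member made the change. The maternal gammaTub37C fell to 0.908 to 7.56 CPM, against 188, 144, 137, 110.4 and 66.0 CPM at stage 4, and gammaTub23C was at 93.6 ± 10.1 CPM at stage 10 and 91.2 ± 5.17 CPM at stage 4 with no call (median-ratio scaling called it higher by 0.21), giving it 96.7 ± 1.90% at stage 10 and 40.0 ± 10.1% at stage 4. For the Cdc25 phosphatases stg, which is transcribed anew in mitotic domains, held 99.0 ± 0.82% at stage 10 and 62.2 ± 1.36% at stage 4.

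The thioredoxins show a replacement in share without a rise. Trx2 itself fell to 24.0 ± 4.93 CPM, against 149 ± 26.8 CPM at stage 4 (log2 change -2.64 ± 0.14), but dhd fell further, and the share of Trx2 in the pair was 69.3 ± 30.2% at stage 10 and 3.88 ± 0.34% at stage 4. Embryo C was the lowest at 8.66%, and without embryos B and C the mean was 83.9%. The Cdh1 relative fzr made up 91.2 ± 1.15% against cort at stage 10 and 68.8 ± 10.2% at stage 4, where cort is uncertain with 66.4% of reads on its own strand. Other families had not changed over: LamC made up 1.29 ± 0.66% of the lamins at stage 10 and 10.1 ± 1.03% at stage 4, and the muscle actin Act57B 0.199 ± 0.183% beside Act5C at stage 10 and 0.0364 ± 0.0398% at stage 4.

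Another behaviour was loss followed by return. Of the 294 dipped genes 261 had their lowest mean at stage 5, 24 at stage 6 and 9 at stage 8, and 40 dipped at least 10-fold. Compared end to end, 176 were lower at stage 10, 42 higher and 76 not called, so stage 4 and stage 10 alone would hide the dip of the last group. The transcriptional repressor ttk, on 3R, 31713867 to 31735392, is an example. Its level was between 152 and 375 CPM (median 192) at stage 10 and 252, 225, 240.3, 218 and 192 CPM at stage 4, with a log2 change of 0.02 ± 0.15 and no call (adjusted p = 0.933), but its means ran through 225, 4.92, 41.005, 115 and 228 CPM at stages 4, 5, 6, 8 and 10. The galactosyltransferase C1GalTA ran through 60.6, 1.11, 2.02, 5.05 and 58.0 CPM. The same course was seen for nebu, with 237, 1.76, 1.58, 1.39 and 57.7 CPM, and for CG7255, with 51.7, 1.37, 37.4, 50.4 and 91.7 CPM.

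The mesoderm regulators zfh1 and Mef2 and the cell cycle inhibitor dap followed the same course. Over stages 4, 5, 6, 8 and 10 Mef2 averaged 87.5, 8.95, 55.1, 146 and 226 CPM. For dap the return was under way: embryos D, E, I and J had 187, 252, 258 and 179.7 CPM and B, C, F, G and H 66.1, 53.5, 62.4, 104 and 58.0 CPM at stage 10, against 231, 236, 256, 252 and 235 CPM at stage 4. Its log2 change of -0.84 was called (adjusted p = 0.00103), but not in a fit of these 14 embryos alone. The gene Cph, a zinc finger factor, varied likewise, with between 16.8 and 281 CPM (median 69.8) at stage 10 and 37.8, 76.4, 105, 53.5 and 16.9 CPM at stage 4, and its call (adjusted p = 0.0216) was lost without any one of stage 10 embryos D and I or stage 4 embryos B and H.

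**Figure D4:**
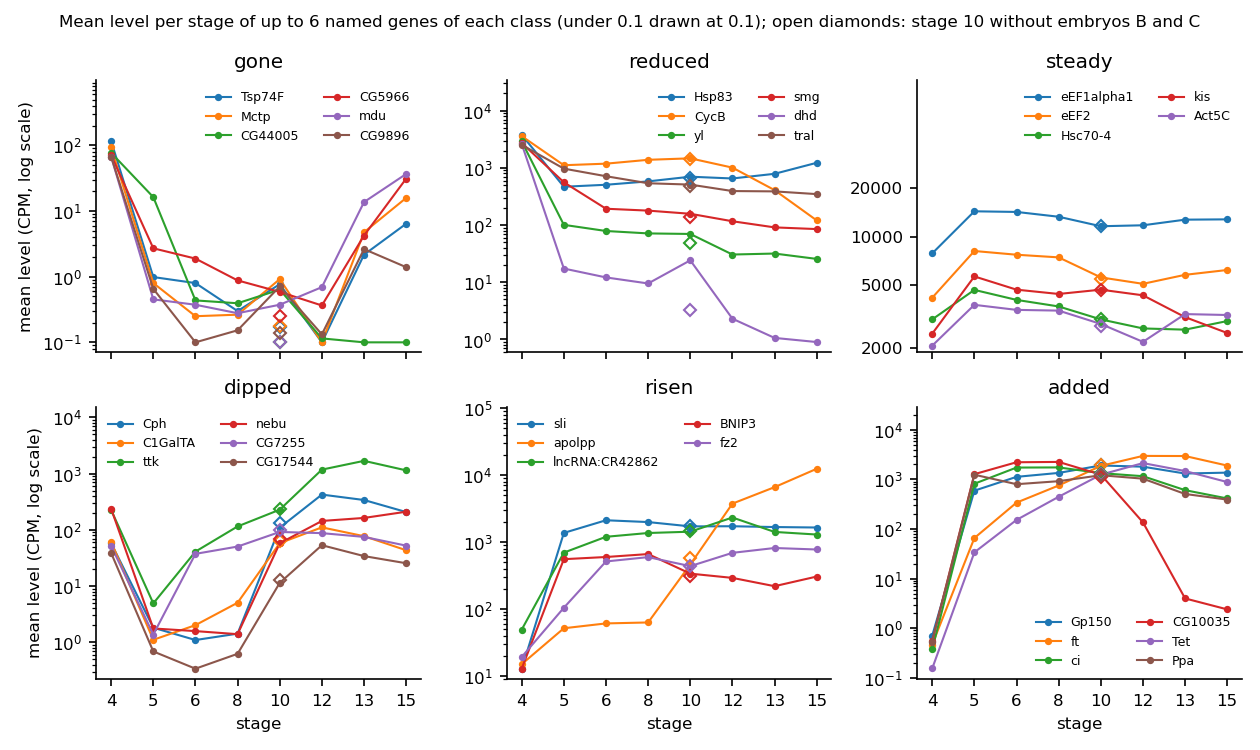
Mean level (vertical axis in CPM, log scale, values under 0.1 drawn at 0.1) at the 8 stages (horizontal axis) of up to 6 named genes of each class; open diamonds are stage 10 means without embryos B and C. Dipped genes pass a minimum between stages 5 and 8 that neither end shows, gone genes such as mdu are back at stage 15, and the stage 10 mean of dhd drops to 3.21 CPM without embryos B and C.

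The genes with the largest increases from a maternal level were sli, apolpp, lncRNA:CR42862, BNIP3 and fz2. Slit (sli), the secreted repellent of the midline, was between 1499 and 1990.2 CPM (median 1686) at stage 10 and 6.43, 13.8, 14.9, 15.1 and 13.0 CPM at stage 4, a log2 change of 7.11 ± 0.14 (adjusted p = 5.41e-43). The groups were far apart and the stage 10 embryos close together. The lipoprotein precursor apolpp was different: it had 709, 696, 1370.2 and 1060.0 CPM in embryos D, E, I and J, 47.9, 33.4, 96.1, 89.0 and 60.9 CPM in B, C, F, G and H, and 8.28, 7.88, 16.7, 27.7 and 14.3 CPM at stage 4. Its mean went on to 12440.2 CPM at stage 15, and what sets the stage 10 embryos apart in it was not tested. The Wingless receptor fz2 stood at 437 ± 51.4 CPM at stage 10 and 19.2 ± 4.63 CPM at stage 4.

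Of the 599 added genes, 277 first reached 10 CPM at stage 5, 98 by stage 6, 52 by stage 8 and 172 only at stage 10. The 12 with the highest stage 10 levels were Gp150, ft, ci, CG10035, Tet, Ppa, rib, bnb, robo2, Tom, Ama and Inx3. The transmembrane protein gene Gp150 was between 1651 and 2159 CPM (median 1960.2) at stage 10 and 0.994, 0.134, 0.230, 1.26 and 0.917 CPM at stage 4, a log2 change of 11.31 ± 0.18 (adjusted p = 3.02e-47). The giant cadherin ft, which sets tissue growth and planar polarity and lies on 2L, 4198404 to 4221796, was between 1643 and 2258 CPM (median 1806) at stage 10 and 0.729, 0.134, 0.230, 0.882 and 0.367 CPM at stage 4. Its mean at stage 5 was only 65.8 CPM, so most of its increase came after that stage. The same holds for Tet, a TET-family dioxygenase, with 33.8 CPM at stage 5 and 1245 ± 276 CPM at stage 10, against 0.154 ± 0.207 CPM at stage 4.

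Others of the 12 were there at full level from stage 5. Ppa, which encodes an F-box protein, averaged 1245 CPM at stage 5 and 1215 ± 56.4 CPM at stage 10, against 0.538 ± 0.353 CPM at stage 4, and Inx3, a gap junction innexin, 964 CPM and 987 ± 71.4 CPM, against 0.220 ± 0.219 CPM. The uncharacterized CG10035 was transient, with 1277 CPM at stage 5, 1251 ± 472 CPM at stage 10 and 2.39 CPM at stage 15. Its stage 10 embryos ranged from 559.6 to 1845 CPM, with E and I lowest at 559.6 and 636 CPM. The immunoglobulin gene Ama is the direct neighbour of bcd on chromosome 3R: Ama spans 6762593 to 6765261, bcd 6755842 to 6759466 and zen, a dorsal patterning gene, 6752864 to 6754194. While bcd fell to 1.73 ± 2.67 CPM, against 144 ± 19.7 CPM at stage 4, Ama had 992 ± 209 CPM at stage 10 and 0.253 ± 0.0867 CPM at stage 4, and zen, which averaged 81.0 CPM at stage 5, was low at both ends with 0.690 ± 0.514 CPM and 1.56 ± 1.86 CPM.

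**Figure D5:**
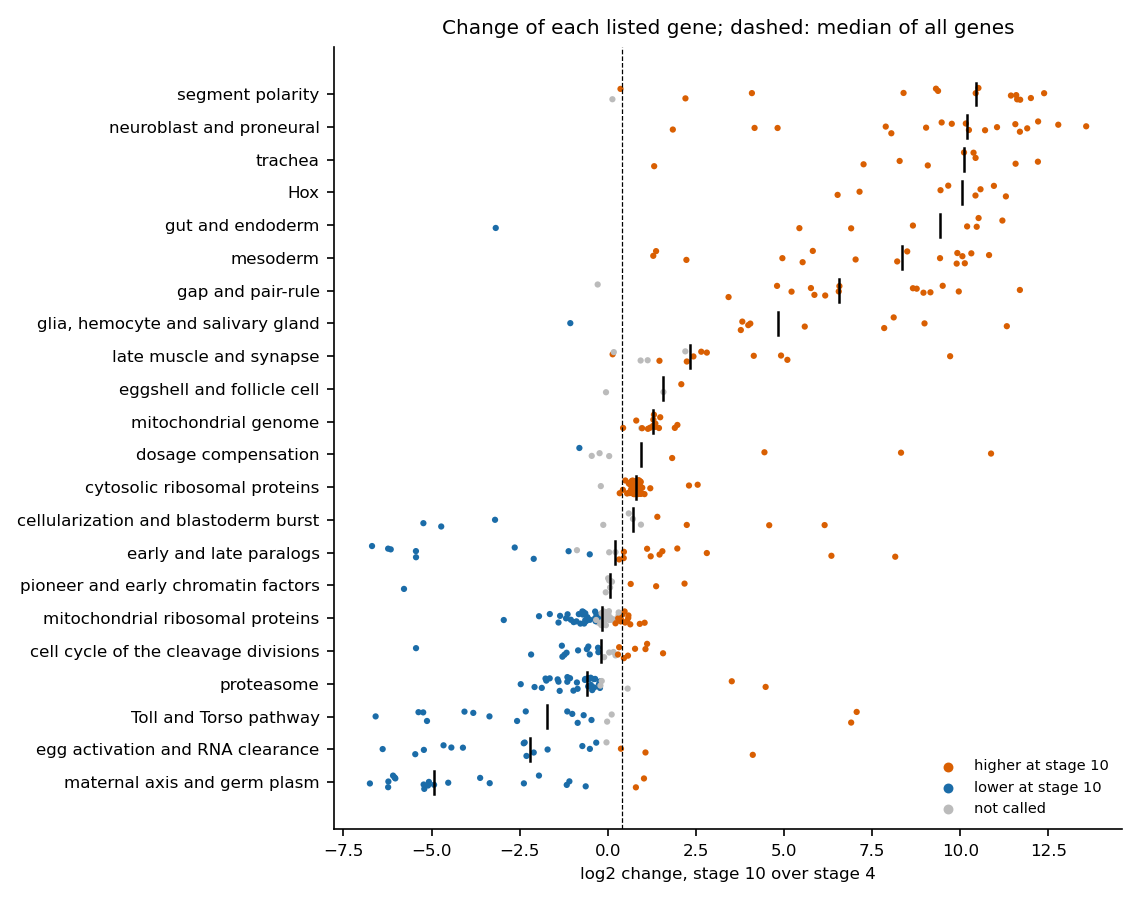
Fitted log2 change, stage 10 over stage 4 (horizontal axis), of each tested gene of 22 lists (rows); orange points were called higher at stage 10, blue points lower and grey points not called, black bars are list medians and the dashed line is the median of all genes, 0.397. Segmentation, neural and tissue lists lie to the right and maternal lists to the left; genes with no read at stage 4 are drawn at a fitted value that depends on the fit.

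The segmentation genes show what the zygotic genome had built by stage 10. Of 16 gap and pair-rule genes 15 were higher and 0 lower, with a median log2 change of 6.56, although most of them peak earlier. The gap gene Kr was between 254 and 344 CPM (median 278) at stage 10 and 0.530, 0, 0.345, 0.378 and 0.550 CPM at stage 4, and its mean at stage 5 was 333 CPM. The pair-rule genes eve and ftz had nearly run their course, at 2.54 ± 1.08 CPM and 5.41 ± 4.19 CPM at stage 10 after 73.8 and 183 CPM at stage 5, against 0.296 ± 0.479 CPM and 0.210 ± 0.310 CPM at stage 4. Maternal and zygotic RNA overlap for hb, the one gene of the list not called, with between 152 and 300.0 CPM (median 204) at stage 10 and 268, 272, 288, 267 and 232 CPM at stage 4 (adjusted p = 0.0557). It was called lower without embryo J, with a log2 change of -0.35 (adjusted p = 0.0185), and likewise without any one of D, E or I or of stage 4 embryo H. For gt and tll the stage 10 values include the low ones of embryo J, and their log2 changes were 6.57 and 5.21 over 9 embryos and 6.73 and 5.37 without J.

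Segment polarity genes, which hold the segment borders after the pair-rule stripes fade, were higher for 14 of 15, with a median log2 change of 10.44, or 9.86 when the 3 genes with no read at stage 4 are set at their lower bounds. The Wnt ligand wg was between 137 and 238 CPM (median 206) at stage 10 and 0, 0, 0, 0 and 0.183 CPM at stage 4. The Hedgehog receptor ptc was between 607 and 837 CPM (median 738), against 0.596, 0.534, 0.345, 0.504 and 0.183 CPM. The ligand hh had 73.7 ± 12.0 CPM at stage 10 and no read at stage 4, at least 928-fold higher against a floor of 3 reads over the stage, and the same floor gives at least 1579.9-fold for gsb. The members present at stage 4 were arm, smo and fz: arm, the fly beta-catenin, rose to 2511 ± 368 CPM, against 546 ± 23.9 CPM at stage 4, the Hedgehog transducer smo to 151 ± 24.6 CPM, against 118 ± 6.28 CPM, and the Wnt receptor fz stood at 182 ± 9.53 CPM at stage 10 and 166 ± 16.9 CPM at stage 4 without a call, which it gained with median-ratio scaling.

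All 8 Hox genes were higher, and all 8 were present at stage 10. Stage 10 levels, which are not corrected for gene length, were 12.4 ± 4.48 CPM for lab, 16.3 ± 11.7 CPM for pb, 31.8 ± 12.6 CPM for Dfd, 63.8 ± 29.1 CPM for Scr, 146 ± 25.1 CPM for Antp, 105 ± 52.7 CPM for Ubx, 172 ± 96.3 CPM for abd-A and 136 ± 25.9 CPM for Abd-B. At stage 4 every Hox gene averaged at most 0.167 CPM. The spread between stage 10 embryos was wide for abd-A, from 66.2 to 354 CPM, and for Ubx, from 48.5 to 205 CPM, with embryo H lowest and embryo J highest in both. Embryo J was lowest of the 9 for lab, pb, Dfd and Scr.

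The neural program was in full course. All 18 neuroblast and proneural genes were higher, with a median log2 change of 10.20, or 9.99 with the 5 genes without stage 4 reads at their bounds. The neuroblast factor wor, on 2L, 15423297 to 15425580, was between 97.3 and 230.2 CPM (median 142) at stage 10 with no read at stage 4, at least 2093-fold higher, and the same holds for ase, 30.9 to 114 CPM and at least 902-fold. The proneural gene l(1)sc was at 171 ± 26.4 CPM at stage 10 and 0.995 ± 1.83 CPM at stage 4, and the temporal factors nub and pdm2 at 287 ± 46.9 CPM and 299.7 ± 62.9 CPM, against 0 and 0.0729 ± 0.0785 CPM. For the fate determinants mira and pros the levels were 671 ± 70.4 CPM and 273 ± 80.2 CPM at stage 10 and 0.375 ± 0.258 CPM and 0.196 ± 0.126 CPM at stage 4. The temporal factor cas, which follows nub and pdm2, ranged from 8.87 to 64.5 CPM over the stage 10 embryos, with embryo I highest.

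Mesoderm genes were higher for all 16, with a median log2 change of 8.35 (8.20 with bounds). Early factors and later ones differed among the stage 10 embryos. The early mesoderm determinant twi was 97.5, 97.1, 99.4 and 88.0 CPM in embryos B, C, F and H, 55.5 CPM in G and 32.1, 30.5, 27.7 and 29.6 CPM in D, E, I and J, against 0.0663, 0, 0, 0 and 0.367 CPM at stage 4. The visceral mesoderm factor bin ran the other way, with 3.12, 4.77, 6.60, 6.27 and 15.8 CPM in B, C, F, H and G and 39.1, 44.1, 37.5 and 52.5 CPM in D, E, I and J, and no read at stage 4. The myogenic factor lmd was likewise highest in E and I, at 96.9 and 82.3 CPM, and at 4.31 CPM in B. These embryos were not treated as groups, since the labels give them 1 stage.

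Organ primordia were marked by high levels of their early regulators. All 9 tracheal genes were higher, with a median of 10.11, among them the selector trh with between 84.4 and 284 CPM (median 106) at stage 10 and 0.199, 0.267, 0.460, 0.252 and 0 CPM at stage 4, and the FGF receptor btl with 111 ± 34.2 CPM and no read at stage 4, at least 1402-fold higher. The highest trh value was that of embryo J, and the other 8 had at most 233 CPM. The BMP receptor tkv was maternal and rose to 336 ± 25.8 CPM, against 135 ± 3.80 CPM at stage 4. Of 8 gut and endoderm genes 7 were higher, with fkh at 265 ± 32.2 CPM and 0.0981 ± 0.0689 CPM and the endodermal GATA factor srp at 160.3 ± 17.9 CPM and 3.63 ± 1.11 CPM. The exception was cad, a maternal posterior factor that later acts in the hindgut, which fell to 26.4 ± 6.97 CPM, against 241 ± 26.7 CPM at stage 4 (log2 change -3.18 ± 0.29). Its lowest stage 10 value, 10.1 CPM, was again in embryo J.

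Markers of glia, hemocytes and salivary gland were higher for 9 of 10, with a median of 4.81, or 7.29 over the 9 tested with opposite-strand counts. The glial master gene gcm was between 18.8 and 93.6 CPM (median 61.6) at stage 10 with no read at stage 4, at least 758-fold higher. Its lowest stage 10 value was that of embryo J, and the other 8 had 51.6 to 93.6 CPM. The secretory factor CrebA was 207 ± 18.6 CPM, against 4.48 ± 2.03 CPM. The hemocyte enzyme Pxn reached 9.01 to 69.0 CPM (median 33.7), against 0.0782 ± 0.118 CPM at stage 4, while the scavenger receptor crq, present in the egg, fell to 115 ± 29.0 CPM, against 239.5 ± 15.4 CPM; its mean at stage 5 was 11.2 CPM, so its stage 10 RNA followed a minimum. The glial gene repo was still near 0 in most embryos, at between 0 and 3.77 CPM (median 0.597), and was 63.9 CPM at stage 15.

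Terminal differentiation had barely begun. Among 14 tested genes of muscle and synapse 10 were higher (6 in a fit of these 14 embryos alone, which tests fewer genes), but only elav, sls, Syx1A and Tm1 had at least 10 CPM at stage 10. The pan-neuronal gene elav was already between 244 and 415 CPM (median 323) at stage 10 and 0.331, 0.401, 0.345, 0.378 and 0.367 CPM at stage 4. The muscle myosin Mhc averaged 3.31 ± 1.88 CPM at stage 10 and 0.747 ± 0.579 CPM at stage 4, and 1695 CPM at stage 15, and the active zone gene brp 1.51 ± 0.804 CPM, 0.0252 ± 0.0563 CPM and 64.3 CPM. The giant muscle protein sls ranged from 21.1 to 374 CPM at stage 10, with F and J highest, and had 23.8 CPM in stage 4 embryo G and at most 1.28 CPM in the other 4. Values of para are uncertain, with 16.5% of its reads on its own strand.

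Several genes of the brief blastoderm burst were low at both ends of this comparison. Of 11 tested genes of cellularization 4 were higher and 3 lower, beside 49.7% higher and 33.8% lower of all genes, and without stage 4 embryo H 7 were higher. Only 4 of the 11 passed the filter on low counts in a fit of these 14 embryos alone. The others were tested because other stages were in the model, so these counts rest largely on values near 0 at both ends. The membrane growth gene slam fell to 8.12 ± 3.96 CPM, against 219.7 ± 16.9 CPM at stage 4, and had 6370.1 CPM at stage 5. The insulator subunits Elba1 and Elba3 and the genes SNCF and term averaged 740.4, 478, 527 and 535 CPM at stage 5, but 0.621, 0.415, 0.724 and 1.10 CPM at stage 10 and 0.517, 0.640, 0.654 and 0.827 CPM at stage 4, with no call. Without stage 4 embryo H, Elba1, SNCF and term were called higher, term with a log2 change of 2.36 (adjusted p = 0.00139), and bnk lost its lower call. Stage 4 reads of such genes can rest on embryos G and H, as for nullo, which was called lower with no read in 8 of the 9 stage 10 embryos and 0, 0, 0, 3.02 and 7.34 CPM at stage 4. Only kuk kept a high level, 1405 ± 139.9 CPM at stage 10 and 531 ± 19.6 CPM at stage 4.

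Of the dosage compensation genes, the subject of the study, 5 were present at stage 4 and 1, roX2, belonged to the added class. Of 8 genes 4 were higher and 1 lower, near the 49.7% higher of all genes tested, so the count says nothing particular of them. The noncoding RNA roX1, which with the MSL proteins coats the male X chromosome and lies on X, 3857230 to 3862697, was between 1656 and 2824 CPM (median 1900.3) at stage 10 and 0.795, 0.401, 0.345, 1.64 and 2.75 CPM at stage 4, a log2 change of 10.87 ± 0.80 (adjusted p = 8.21e-18). The second such RNA, roX2, was between 2.39 and 61.0 CPM (median 12.1), with embryo E highest. The subunit msl-2, whose translation is blocked in females, had 213, 216 and 226 CPM in embryos B, E and F and 50.6 to 75.2 CPM in the other 6 at stage 10, against 4.11, 5.87, 5.97, 3.91 and 6.79 CPM at stage 4. The sex of the embryos is not in the labels. The helicase mle was higher at 195 ± 14.9 CPM and 55.1 ± 6.97 CPM, msl-1 lower at 242 ± 25.007 CPM and 422 ± 24.5 CPM, and mof, msl-3 and Clamp were not called.

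Markers of eggshell and follicle cells, which a collection could carry along, were at or near 0 in most embryos. Their summed level was 4.13 to 58.2 CPM at stage 10, highest in embryo D, and 2.95 to 7.62 CPM at stage 4. Of 14 such genes 3 were tested. Only the yolk protein gene Yp3 was called higher, with 24.2 CPM in embryo D, at most 3.30 CPM in the other 8 stage 10 embryos and 0.994, 0.801, 1.03, 1.26 and 0.917 CPM at stage 4, and the call was lost without embryo D. The eggshell genes Vm32E and Cp19 had no read in any stage 10 embryo.

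Beyond their change, the classes differed in a few features that were not used directly to form them. The median genomic span of added genes was 5.89 kb, against 2.78 kb for all genes tested. That of risen, reduced, steady and gone genes was 4.12, 3.09, 2.56 and 2.51 kb. Levels in CPM are not corrected for gene length, so length can bear on which genes pass the class limits. The median exon length was 2.92 kb for added genes and 2.09 kb for all genes tested. Noncoding RNA genes numbered 37 of 599 among the added and 0 of 60 among the gone, against 382 of 9783 tested. With so few genes in the gone class, the 0 says little. On the X chromosome lay 11.5% of added, 15.5% of risen, 20.3% of reduced and 18.3% of gone genes, against 16.4% of all tested. At stage 15 present levels were found for 559 of 569 risen, 457 of 599 added, 1358 of 1699 reduced and 20 of 60 gone genes. Of all genes tested 6700 of 9783 (68.5%) were present there. The limit of 10 CPM is the one that also formed the classes. These shares were not tested.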

How the data were processed

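The deposited files hold whole-number read counts per gene for each embryo, written by STAR 2.5.3a on the dm6 assembly per the submitters' processing notes; the gene annotation was not given in the sources used here. Per the labels' protocols, each embryo was lysed singly, ERCC RNA was added, ribosomal RNA was depleted with a kit for human, mouse and rat, and directional paired-end libraries were read on a HiSeq1500. The deposited counts that ignore strand were used unchanged, and the rows that name no gene were left out of library sizes and tests; reads in no gene made up 4.53 to 10.5% at stage 10 and 0.298 to 0.347% at stage 4. Of the reads in genes, 96.7 to 97.5% lay in the opposite-strand column of these 14 libraries. Symbols and positions come from Ensembl release 115 (BDGP6.54) for 17343 of 17481 gene IDs. One edgeR 4.0.16 quasi-likelihood model (R 4.3.3, TMM scaling, filter on low counts) was fitted to all 54 embryos with a mean per stage, and stage 10 was contrasted with stage 4. DESeq2 1.42.0, median-ratio scaling, no filter, a fit of the 14 embryos alone, opposite-strand counts, each embryo left out and other class limits were tried as alternatives. Single values per embryo were compared by an exact permutation test. The model was also run on simulated data, but the outcome is not given here and lends no weight to the calls. For named genes, the 10 gone and 12 added genes with the highest mean CPM at stage 4 and stage 10, the 5 risen genes with the largest change, the 5 steady genes highest at stage 4 and the 6 deepest dips were taken, and genes with under 80% of reads on their own strand were passed over. These rules, the 22 gene lists and the choice of comparison were made with earlier results of these data known; the reduced genes, the genes gone without embryos B and C and the limit for single embryos were chosen after the values were seen. A fold against a stage with no read uses a floor of 3 reads over that stage, which covers counting error only. No pair of embryos of a stage agreed within sampling noise, with a chi-square per degree of freedom of 3.93 or more in all 46 pairs, so none was counted as a repeat.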

Additional observations from a re-analysis of the deposited data

Results flagged for a closer look

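In 94 groups of values from embryos of 1 stage, the highest or lowest embryo was compared with the nearest of the others. A gap large for the range of its group was found 14 times. The limit used is set to flag about 1 in 20 groups of independent, normally distributed values. Many groups here hold levels near 0 or repeat the same embryo, so that rate is no measure of chance for them. Stage 10 embryo C was the high embryo in 10 of the 14. Gone genes made up 0.0127% of its reads, against 0.00425% in the next embryo, and reduced genes 6.93%, against 6.31%. Its levels were 4.97 CPM for Tsp74F, 5.57 CPM for Mctp, 4.58 CPM for CG44005, 2.59 CPM for CG5966, 2.39 CPM for mdu, 3.98 CPM for CG9896, 3.58 CPM for CG9265 and 3.58 CPM for CG10863, and the next stage 10 embryo lay between 0.479 and 1.44 CPM for each of these genes. Among the stage 4 embryos, B was low for Mctp at 80.8 CPM and for sli at 6.43 CPM, where the nearest others had 94.0 and 13.0 CPM. Stage 4 embryo G was high for Tet at 0.504 CPM, next to 0.134 CPM, and H for Tom at 2.38 CPM, next to 0.267 CPM.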

How the results depend on the processing

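The settings gave 336 alternative values for the counts of called genes, class sizes and shares of reads. Of these, 14 moved, meaning by over 1.5 times for a count and by over 1 SD between embryos for a share. The other 322 stayed within these limits. The size of the gone class was the least stable: it was 28 with a present level of 20 CPM, 22 with an absent level of 0.5 CPM, 166 with 2 CPM, 111 without stage 10 embryos B and C, and 55 to 98 when embryos were left out one at a time, with 98 without stage 10 embryo C. Added genes numbered 925 with a present level of 5 CPM. A fold of 1.5 gave 1310 steady and 1118 risen genes, and a fold of 3 gave 1071 reduced and 210 risen genes. Dips of 2-fold and 8-fold gave 968 and 72 dipped genes. With mitochondrial genes left out of the classes, risen genes held 23.3% of reads at stage 10 and 8.74% at stage 4, since 9 of them are mitochondrial. Leaving out 1 embryo at a time gave 4785 to 5043 higher and 3126 to 3345 lower genes.

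DESeq2 called 8267 genes, of which 64.1% were higher, the fit without a filter 10306 of 15940, the 14 embryos alone 6758 of 7926 and opposite-strand counts 6441 of 7610. Whether the letters pair the embryos was not settled. Deviations of same-lettered embryos correlated at 0.138, 0.021, 0.077, 0.051 and 0.022 for B, C, D, G and H. The highest correlations with another letter were 0.004, 0.037, 0.055, 0.046 and 0.036. Embryos B, D and G thus correlated best with their own letter, and C and H with another. A fit with the letter as a replicate block called 8144 genes, 8052 of them among the 8175. Among 488 named and listed genes, 57 changed their call under some setting, and Cks85A alone reversed, with a log2 change of 0.78 with opposite-strand counts, against -0.51. Without stage 10 embryos C, G, H and I, which had over 8% of reads in no gene, 7812 genes were called. The planned search for motifs in promoters was not run, because no promoter sequences were used here.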
